A study of Homo sapiens with 6 samples.

Results

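The clustered histone genes are the genes of the replication-dependent histones, and their members here are the symbols of the count tables that begin with HIST1H, HIST2H, HIST3H or HIST4H. There were 73 such symbols among 23368, of which 6 name H1 genes, 18 H2A, 20 H2B, 14 H3 and 15 H4 genes, and 3 of the 73 are pseudogenes. RNA came from NB4, a long-used line of human cells from an acute promyelocytic leukemia. It was sequenced in 3 libraries of not treated cells and in 3 libraries of cells given 10 µM maltonis, a synthetic compound derived from maltol, for 24 h. Both groups were grown in the same medium, no genotype differed between them, and ribosomal RNA was removed from total RNA without a step that picks polyadenylated RNA. All 6 libraries thus describe a single cell line, at a single dose and time.

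Each nucleosome, the basic unit of chromatin, wraps DNA around a core made of H2A, H2B, H3 and H4, and a linker histone of the H1 type binds where the DNA enters and leaves. The clustered genes supply these proteins while DNA is copied. Most of their mRNAs carry no poly(A) tail and end instead just after a short stem-loop that is bound by the protein SLBP, while the coactivator NPAT drives their transcription. Variant histones such as H2AFZ or H3F3B come from genes outside the clusters and are made throughout the cell cycle.

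The stem-loop is the sequence the members share most plainly, so each form of it is shown, with the loop in capitals and the stem in lower case. It was searched on the transcript's own strand in GENCODE release 29 as the 16-base histone stem-loop consensus, and the forms that were found are listed. The motif was present in 33 of the 73 members, and in 48 of all 58721 genes, or 0.0817%. For 32 members the annotated transcript stops too soon after the coding sequence to show it, so that a missing match says nothing about the gene.
Form in 17 members of H2A, H2B and H3: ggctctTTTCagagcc
Form in 5 members of H2B and H3: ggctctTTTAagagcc
Form in 2 members, HIST1H2AG and HIST2H2BC: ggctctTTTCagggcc
Form in HIST1H3E: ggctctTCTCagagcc
Form in 5 members, all H4: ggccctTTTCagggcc
Form in 3 members, all H4: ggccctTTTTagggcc
Before the loop, all forms of H4 members read ggccct and those of the other types ggctct. HIST1H3E was the only member whose loop read TCTC.

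The libraries held 18492154 to 38205483 counts, and 3 counts, taken as the floor of detection in a library, corresponded to 0.0828 to 0.160 CPM (counts relative to library size, with sizes scaled by TMM), a limit for counting error only. Members took 1.82% to 2.02% of the counts of the not treated libraries and 2.67% to 2.93% of those of the maltonis libraries. Of 11 promyelocyte markers, 10 were above the floor in every library, and ELANE had 2 to 6 counts without maltonis. In treated cells 4 of the 11 were higher, with ELANE, CTSG and LYZ at the largest log2 fold changes (7.07, 2.34 and 1.43), and 5 were lower, MPO among them (12892 to 15528 CPM without and 7298 to 7553 CPM with maltonis). The summed level of all 11, most of it MPO, lay at 17615 to 20190 and 12197 to 12558 CPM. Of 13 markers of other cell types, 4 were at 0 in every library and CD3E, COL1A1 and PPBP were at most at 0.207 CPM. CD3D, NCAM1, EPCAM, KRT18, PECAM1 and CD79A were present, and the sum of all 13 was 112 to 130 CPM without and 61.6 to 70.2 CPM with maltonis. Their part in the results below was not tested. The names of the count tables carry a code of unknown meaning, which sets replicate 1 of each group (code A) apart from replicates 2 and 3 (code B).

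After the filter on low counts, 58 members were tested and 15 were not. At an adjusted p under 0.01, 33 of the 58 (56.9%) were higher in maltonis, against 31.9% of all 13209 genes tested, and 7 (12.1%) were lower, against 32.1% of all genes. The median log2 fold change of the tested members was 0.56, beside 0.014 over all genes tested. HIST1H3E passed the filter only through its maltonis libraries, so that it could only rise. Of the other 57 members, 32 (56.1%) were higher and 7 lower. Adjusted p-values were obtained with the quasi-likelihood test of edgeR and adjusted over all genes after Benjamini and Hochberg. With the library code as a term in the same fit, 37 members were higher and 13 lower. HIST1H2BB, HIST1H2BO, HIST1H3G and HIST1H4C then also passed as higher. HIST1H2AE, HIST1H2BC, HIST1H2BG, HIST1H2BK, HIST1H4B and HIST1H4D then also passed as lower.

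Of the 58 tested members, 5 rose by more than 2.5-fold, a share near the 9.96% of all genes. By the same measure 2 fell, a smaller share than the 10.4% of all genes. The 5 were HIST1H3E, which could only rise, HIST1H1T, HIST1H1A, HIST1H4A and HIST1H3A, and the 2 were HIST1H4E and HIST1H4L. Without not treated replicate 1 or 2 the first number was 8, and without not treated replicate 2 or 3 or maltonis replicate 1 the second was 1. The libraries of the groups did not overlap for 43 tested members (74.1%), beside 76.6% of all genes tested. In bulk RNA, fewer cells that make a transcript and less of it per cell cannot be told apart.

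**Figure D1:**
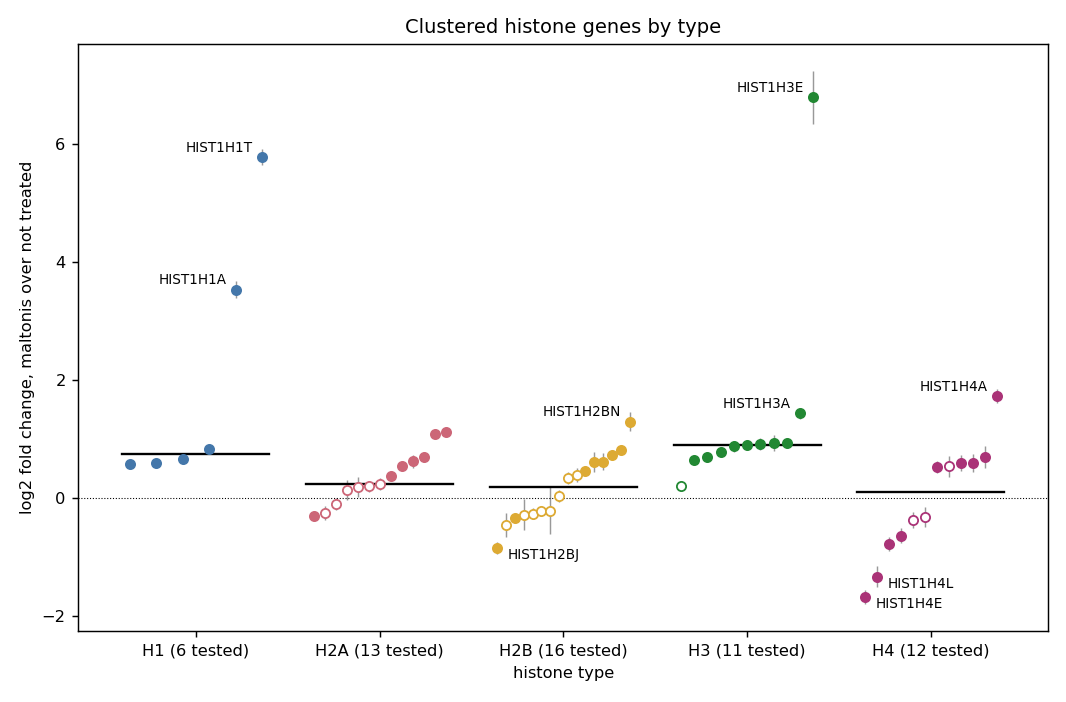
Log2 fold change of each of the 58 tested members (y axis, maltonis over not treated, bars show the standard error) by histone type (x axis). Filled points passed an adjusted p of 0.01, open points did not, and black lines are the medians of the types, which run from 0.10 for H4 to 0.89 for H3. All 6 H1 members lie above 0, and H4 members lie on both sides.

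The linker histone genes rose. All 6 H1 members were higher in maltonis at an adjusted p under 0.01, where 31.9% of all genes tested were higher and 32.1% lower. None was lower, also at an unadjusted p under 0.05 or by DESeq2, and the median log2 fold change was 0.74. HIST1H1B, HIST1H1E, HIST1H1C and HIST1H1D, the somatic linker histones that make up the bulk of H1, rose by log2 fold changes between 0.58 and 0.83. HIST1H1B was at 1768, 1862 and 1628 CPM in not treated replicates 1, 2 and 3 and at 2929, 3158 and 3265 CPM in maltonis replicates 1, 2 and 3. This is a 1.78-fold difference (log2 fold change 0.83, SE 0.0724, adjusted p 1.03e-05). HIST1H1E went from 1426, 1550 and 1377 CPM to 2062, 2199 and 2259 CPM, with a log2 fold change of 0.58 (SE 0.0676, adjusted p 6.12e-05). For each of the 4 genes, every maltonis library stood above every not treated library, and the groups did not overlap for 76.6% of all genes tested. Their order per kilobase of coding sequence did not change: HIST1H1B led with 2585 CPM per kb without and 4597 with maltonis, followed by HIST1H1E, HIST1H1C and HIST1H1D.

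The other pair of H1 genes started from a low level. HIST1H1T, the linker histone of the male germ line, was at 1.23, 1.52 and 1.48 CPM in not treated cells. It was at 68.3, 81.3 and 86.5 CPM in treated cells, 54.8-fold higher (log2 fold change 5.78, SE 0.135, adjusted p 2.05e-08). HIST1H1A, an H1 gene with a restricted expression pattern, was at 1.12, 1.27 and 1.24 CPM and rose to 12.4, 14.2 and 15.6 CPM, 11.5-fold (log2 fold change 3.53, SE 0.14, adjusted p 1.36e-07). The groups were far apart in both genes, and within library code A the log2 differences were 5.80 and 3.47, within code B 5.81 and 3.57. Even so, the summed level of H1 rested on the 4 abundant genes, for the log2 ratio of its sum was 0.71 with and 0.69 without HIST1H1T and HIST1H1A.

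Among the genes of H3, 10 of 11 tested members rose (90.9%, against 31.9% of all genes), HIST1H3E among them, which could only rise. None fell, also at an unadjusted p under 0.05 or by DESeq2. The median log2 fold change of 0.89 was the highest of the 5 types. HIST1H3B was at 839, 831 and 788 CPM in not treated and at 1366, 1364 and 1460 CPM in treated libraries (log2 fold change 0.77, SE 0.0585, adjusted p 4.43e-06). HIST1H3H stood at 518, 587 and 525 CPM and then at 878, 1066 and 1119 CPM, a log2 fold change of 0.91 (SE 0.0974, adjusted p 3.67e-05). HIST1H3I moved from 252, 301 and 266 CPM to 517, 527 and 523 CPM (log2 fold change 0.93, SE 0.0725, adjusted p 5.01e-06). The groups did not overlap in any of these, nor in 76.6% of all genes tested. HIST1H3J, HIST1H3C, HIST1H3D, HIST1H3F and HIST2H3D rose within the same narrow range, from 0.65 to 0.93. Only 59.1% of the 50-base windows of HIST1H3J and 62.2% of those of HIST2H3D are unique among the members. HIST1H3J shares windows with HIST1H2AM, and HIST2H3D with HIST2H3A, so that their reads could not all be assigned with certainty. HIST1H3G had a log2 fold change of 0.21 and an adjusted p of 0.0371, and its groups overlapped. With the library code as a term HIST1H3G passed as higher.

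HIST1H3A and HIST1H3E went beyond that range. HIST1H3A was at 57.2, 65.6 and 60 CPM and rose to 145, 167 and 182 CPM, 2.7-fold (log2 fold change 1.43, SE 0.0942, adjusted p 1.82e-06). HIST1H3E had 1, 4 and 0 counts in the not treated libraries, at or near the floor, and 91, 260 and 211 counts in the maltonis libraries, which equal 4.7, 7.76 and 7.49 CPM. The ratio of the pooled counts per scaled library size was 122, with an exact 95% counting interval from 52.1 to 378. The fitted log2 fold change of 6.79 (adjusted p 1.94e-06) depends on how the fit treats counts near 0 and is given only to place the gene. At its level with maltonis, HIST1H3E was still the lowest of the tested H3 genes.

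**Figure D2:**
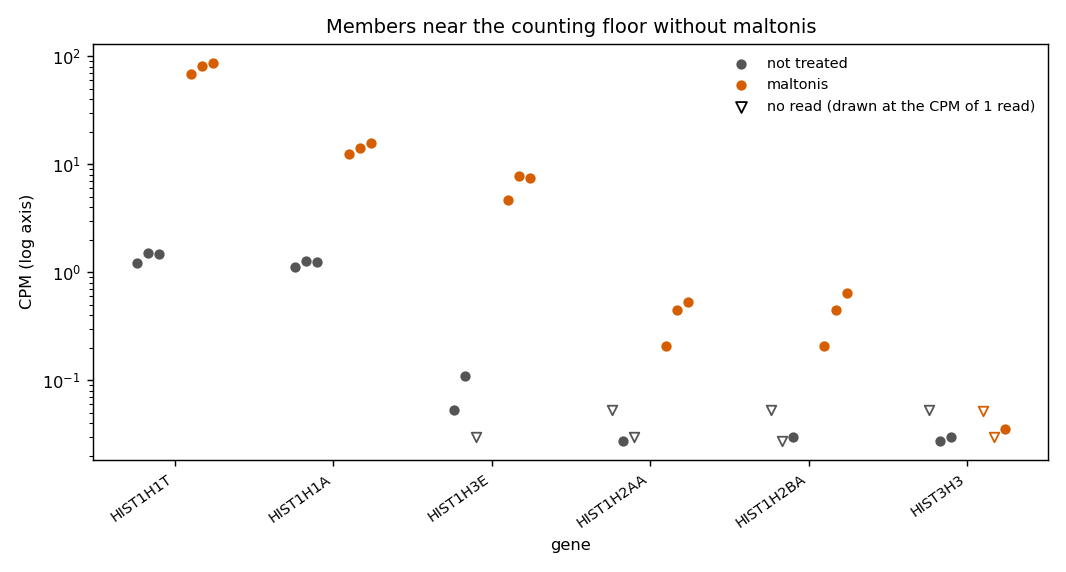
CPM (log axis) of 6 members in each library, with grey points for not treated and orange points for maltonis. Open triangles mark libraries with no read, drawn at the CPM of 1 read. HIST1H1T and HIST1H1A lie above 1 CPM without maltonis, the other 4 at or near the floor, and HIST3H3 stays there in both groups.

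H4 genes changed in both directions. Of 12 tested members, 5 rose (41.7%), 4 fell (33.3%) and 3 did not pass, with a median log2 fold change of 0.10, and these shares are near the 31.9% and 32.1% of all genes tested. All these genes encode nearly the same protein, the most conserved of the histones. HIST1H4E, the gene with the highest level per kilobase in not treated cells, was at 429, 545 and 496 CPM and fell to 130, 164 and 163 CPM. It was 3.21-fold lower (log2 fold change -1.68, SE 0.116, adjusted p 2.44e-06). HIST1H4L went from 272, 384 and 356 CPM to 101, 148 and 152 CPM, 2.52-fold lower (log2 fold change -1.34, SE 0.174, adjusted p 0.000125). HIST1H4F fell from 206, 239 and 230 CPM to 106, 140 and 148 CPM (log2 fold change -0.78, SE 0.121, adjusted p 0.000379). HIST1H4H, with a log2 fold change of -0.64, fell as well. In all 4 genes every treated library lay below every not treated one, and the groups did not overlap for 76.6% of all genes tested.

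In the opposite direction, HIST1H4A rose from 94.4, 124 and 115 CPM to 330, 400 and 374 CPM, 3.31-fold (log2 fold change 1.73, SE 0.111, adjusted p 1.6e-06). HIST4H4, the only member on chromosome 12, was at 19.3, 29.3 and 26.5 CPM and at 31.2, 46.1 and 44.9 CPM (log2 fold change 0.70, SE 0.181, adjusted p 0.00724). HIST1H4I rose by a log2 fold change of 0.59. HIST1H4C was at 370, 525 and 483 CPM without and at 500, 754 and 744 CPM with maltonis, and its log2 fold change of 0.54 did not pass in the test without the library code (adjusted p 0.0208), although it did with the code as a term (adjusted p 4.98e-06). The calls of HIST1H4I, HIST1H4J and HIST4H4 depended on single libraries, being lost in 3, 5 and 4 of the 6 fits with a library left out: the number of H4 genes that rose was 2 without maltonis replicate 2, maltonis replicate 3 or not treated replicate 3.

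Ranked per kilobase of coding sequence, HIST1H4E supplied 17.3% of the H4 reads and stood first of the H4 genes in not treated cells, with 1585 CPM per kb, and had rank 7 in treated cells, where it supplied 6.01%. HIST1H4C was at 1487 CPM per kb without maltonis, within the spread of HIST1H4E, and led with 2156 CPM per kb and 26.3% of the H4 reads in treated cells. HIST1H4A came next there with 1191 CPM per kb and 14.5%. HIST1H4J and HIST1H4K, at 8 to 22.2 CPM, share most of their sequence: none of the 50-base windows of HIST1H4K and 18.8% of those of HIST1H4J are unique among the members, so that reads could not be assigned to either with certainty.

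**Figure D3:**
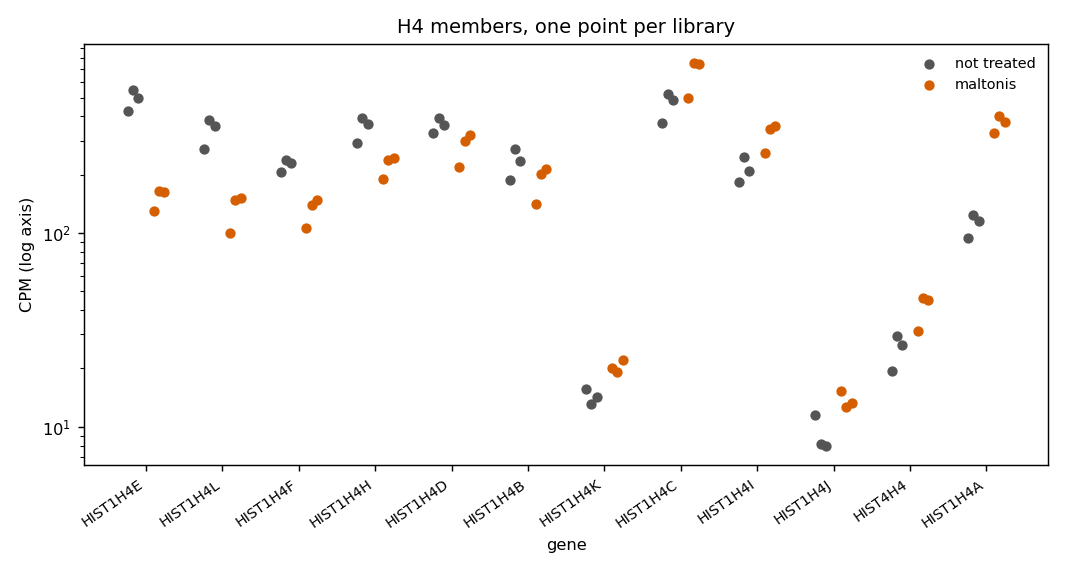
CPM (log axis) of the 12 tested H4 members in each library, grey for not treated and orange for maltonis, ordered from the lowest to the highest log2 fold change. HIST1H4E at the left lies at 429 to 545 CPM without and at 130 to 164 CPM with maltonis, and HIST1H4A at the right rises from 94.4 to 124 CPM to 330 to 400 CPM. In both groups replicate 1 is the lowest of the 3 libraries for most of these genes.

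H2A genes changed less. Of 13 tested, 6 rose (46.2%, against 31.9% of all genes), 1 fell (7.69%, against 32.1%) and 6 did not pass. The median log2 fold change was 0.23. HIST2H2AB, from the chromosome 1 cluster, was at 130, 127 and 119 CPM and rose to 252, 265 and 296 CPM, 2.17-fold (log2 fold change 1.12, SE 0.0738, adjusted p 1.88e-06). HIST1H2AK went from 66.3, 69.5 and 60.2 CPM to 130, 141 and 144 CPM, 2.12-fold (log2 fold change 1.08, SE 0.0737, adjusted p 2.23e-06). HIST1H2AM, HIST1H2AI, HIST1H2AL and HIST1H2AC rose by between 0.38 and 0.69 on the log2 scale. Only 37.7% of the 50-base windows of HIST1H2AI and 16.3% of those of HIST1H2AJ (log2 fold change -0.10, no call) are unique among the members. These genes share the other windows with each other, so that reads could not be assigned to either with certainty. HIST1H2AM was at 398, 465 and 413 CPM and at 625, 682 and 755 CPM, but only 13.7% of its 50-base windows are unique, because its transcripts overlap those annotated for HIST1H3J.

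The H2A gene with the highest level per kilobase without maltonis, HIST1H2AE, showed no call. It stood at 588, 736 and 655 CPM in not treated and at 475, 549 and 640 CPM in treated libraries, so that the groups overlapped (log2 fold change -0.25, SE 0.118, adjusted p 0.0838). HIST1H2AB was at 192, 212 and 192 CPM and fell to 153, 166 and 162 CPM (log2 fold change -0.31, SE 0.0644, adjusted p 0.00219). This fall did not pass when libraries were scaled by total counts (adjusted p 0.0197), by the upper quartile, or without not treated replicate 2. Total counts moved the median of all genes to 0.13.

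H2B genes also changed in both directions. Of 16 tested, 6 rose (37.5%, near the 31.9% of all genes), 2 fell (12.5%, against 32.1%) and 8 did not pass (median log2 fold change 0.18). HIST1H2BN was at 104, 105 and 79.2 CPM and rose to 291, 212 and 206 CPM, 2.45-fold (log2 fold change 1.29, SE 0.155, adjusted p 7.48e-05). HIST1H2BH rose from 307, 328 and 299 CPM to 528, 500 and 610 CPM (log2 fold change 0.81, SE 0.0824, adjusted p 2.66e-05). HIST1H2BL went from 271, 313 and 270 CPM to 445, 469 and 503 CPM, a log2 fold change of 0.73 (SE 0.078, adjusted p 3.56e-05). HIST1H2BI, HIST1H2BF and HIST1H2BE rose by 0.46 to 0.62, the call of HIST1H2BF being lost when any of 5 libraries was left out, all but not treated replicate 1.

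HIST1H2BJ fell. It was at 401, 398 and 328 CPM in not treated and at 197, 195 and 236 CPM in treated cells, 1.79-fold lower (log2 fold change -0.84, SE 0.103, adjusted p 8.7e-05). HIST1H2BM, at 386, 338 and 316 CPM without and 279, 274 and 267 CPM with maltonis, fell by 0.34 on the log2 scale (SE 0.0776, adjusted p 0.00343), a call that was lost with total counts (adjusted p 0.0309). The H2B genes that led without maltonis had small differences. HIST1H2BC was at 508, 576 and 506 CPM and at 381, 472 and 469 CPM (log2 fold change -0.27, adjusted p 0.0299). HIST1H2BD was at 534, 533 and 409 CPM and at 522, 491 and 493 CPM, a log2 fold change of 0.03 (SE 0.101, adjusted p 0.803). In treated cells HIST1H2BH took the first place among the H2B genes, with 1444 CPM per kb.

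Some H2B genes differed more between libraries of a group than between the groups. HIST2H2BE was at 268 CPM in not treated replicate 1 and at 154 and 128 CPM in replicates 2 and 3, and at 262, 89.1 and 123 CPM in the maltonis libraries. Code A was thus high in both groups, and the log2 difference between the groups was -0.03 within code A and -0.41 within code B (adjusted p 0.639). HIST2H2BF, with 384, 254 and 279 CPM and 301, 151 and 302 CPM, and HIST1H2BK, with 360, 328 and 212 CPM and 271, 184 and 202 CPM, were spread in a similar way.

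Levels were also summed over the members of each type. H1 rose from 4926, 5338 and 4700 CPM to 7634, 8164 and 8626 CPM, 1.63-fold, and H3 from 3746, 3953 and 3665 CPM to 6251, 6733 and 6922 CPM, 1.75-fold. H2A was 1.23-fold higher, at 3691, 4177 and 3562 CPM without and 4431, 4700 and 4947 CPM with maltonis. In these 3 types every treated library stood above every not treated one. The sums of H2B overlapped between the groups, at 4910, 4642 and 4090 CPM and at 5101, 4673 and 4999 CPM, as did those of H4, at 2409, 3167 and 2901 CPM and at 2045, 2765 and 2796 CPM. The log2 ratio of the H4 sum was -0.16, although the median log2 fold change of its members was 0.10. No test was made of sums over members.

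Of all reads on the members, H1 took 25.0% without and 30.2% with maltonis, H3 19.0% and 24.6%, H2B 22.8% and 18.3%, and H4 14.2% and 9.38%. Within each library code the log2 ratio of H1 was 0.63 (A) and 0.74 (B), that of H3 0.74 and 0.84, that of H2B 0.06 and 0.15, and that of H4 -0.24 and -0.13. The H4 sum was lower in code A than in code B in both groups, by log2 differences of -0.33 and -0.44.

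**Figure D4:**
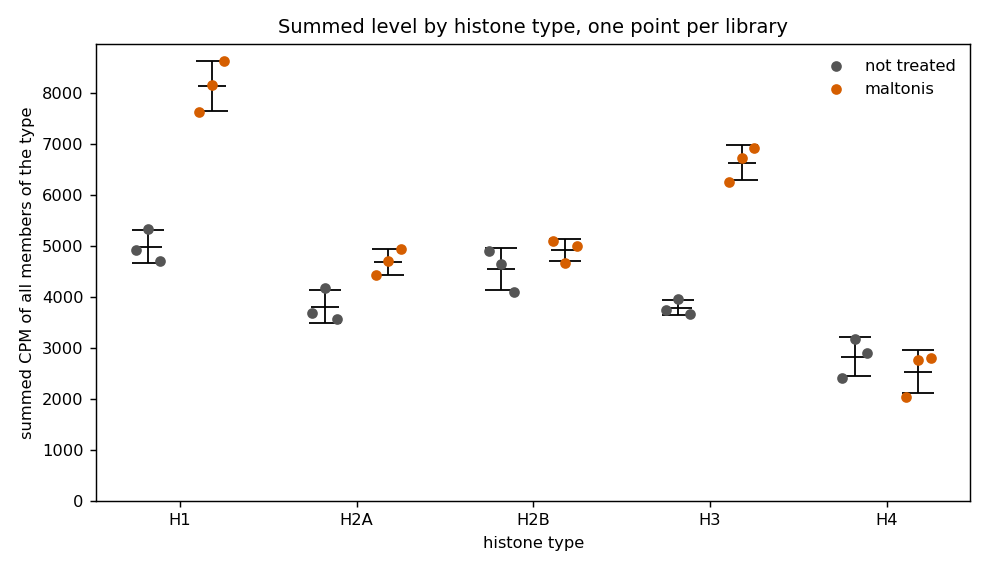
Summed CPM of all members of a type (y axis) in each library, by type (x axis), grey for not treated and orange for maltonis. Black marks show the mean and SD of 3 libraries. H1 and H3 are separated between the groups, with means of 4988 and 8141 CPM for H1 and 3788 and 6635 CPM for H3, while H2B and H4 overlap.

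Members that are made mainly in the testis are HIST1H1T, at 1.23 to 1.52 CPM in not treated cells, and HIST1H2AA, HIST1H2BA and HIST3H3, which had at most 1 count there in a library. HIST1H2AA and HIST1H2BA, neighbours that point away from each other at one end of the chromosome 6 cluster, were not tested because of their low counts. HIST1H2AA had 0, 1 and 0 counts without and 4, 15 and 15 counts with maltonis. HIST1H2BA had 0, 0 and 1 and then 4, 15 and 18 counts. Their pooled ratios were 37 and 40.2, with counting intervals from 6.2 to 1503 and from 6.79 to 1632. Without the filter their adjusted p from edgeR was 0.000378 and 0.000379, but from such counts without maltonis only a rise could be seen. HIST3H3 had at most 1 count in any library.

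The other members that were not tested had low counts or none. HIST2H2AA3, HIST2H2AA4, HIST2H3A, HIST2H3C, HIST2H4A and HIST2H4B had 0 counts in every library. These are near-identical pairs, of whose 50-base windows at most 2.91% are unique among the members, and how reads with several matches were counted is not given in the sources used here. A count of 0 for these 6 therefore does not bear on their expression. HIST1H4G, HIST1H2APS1, HIST3H2A, HIST3H2BB, HIST2H2BA and HIST2H2BC stayed under 0.5 CPM in every library, HIST2H2BA with 5 to 16 counts.

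Some members are known to make polyadenylated transcripts besides the stem-loop form, and 9 of them were listed. HIST1H1C, HIST1H2AC, HIST1H2BC, HIST1H2BD, HIST1H2BJ, HIST1H2BK, HIST1H4H, HIST2H2BE and HIST2H2BF had a median log2 fold change of -0.27, against 0.59 for the 49 other tested members. HIST1H1C and HIST1H2AC rose, HIST1H2BJ and HIST1H4H fell, and 5 did not pass. The summed level of the list was 4196, 4270 and 3654 CPM without and 4234, 4031 and 4536 CPM with maltonis, with overlapping groups, while the sum of all other members was 1.42-fold higher. Of these 9, 6 are H2B genes, and the list was not tested against the rest. In the annotation, 23 members have a transcript that runs over 200 bases past the stem-loop. This is more than the 9 listed, so the other members include genes with such longer transcripts. The medians and sums thus depend on which genes were listed. Members were not compared by the length of their annotated transcripts.

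By position, 52 of the tested members lie in the HIST1 cluster on chromosome 6, which falls into 3 blocks of members with other genes between them. Of all genes tested, 31.9% rose and 32.1% fell. In the first block, from HIST1H2AA to HIST1H4H, 17 members rose (54.8%) and 4 fell (12.9%) of 31 tested. Their median log2 fold change was 0.54. In the second, which holds HIST1H2BJ, HIST1H2AG, HIST1H4I, HIST1H2BK and HIST1H2AH, 1 rose and 1 fell of only 5 (20% each). Its summed level was 0.995 times that without maltonis. In the third, from HIST1H2BL to HIST1H2BO, 12 rose (75%) and 2 fell (12.5%) of 16, and the sum was 1.55-fold higher. HIST1H2AG, in the second block, was at 578, 603 and 382 CPM and at 686, 544 and 540 CPM (log2 fold change 0.18, adjusted p 0.361). HIST2 on chromosome 1 had 5 tested members, of which HIST2H2AB and HIST2H3D rose, and its sum overlapped between the groups.

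Direct neighbours could differ. HIST1H4E (-1.68) lies between HIST1H2BF (0.61) and HIST1H2BG (-0.22), and HIST1H4L (-1.34) between HIST1H3I (0.93) and HIST1H3J (0.65), all as log2 fold changes. Within the first block HIST1H1A, HIST1H3A and HIST1H4A follow each other with 3.53, 1.43 and 1.73, and the next gene, HIST1H4B, had -0.32 (adjusted p 0.118). H2A and H2B genes often lie head to head. In 9 such pairs with both members tested, the gap between the log2 fold changes ran from 0.027 in HIST1H2BG and HIST1H2AE to 1.02 in HIST1H2BJ and HIST1H2AG. In 6 of the 9 the H2A gene had the larger value. In the fit without the library code, only HIST1H2BL and HIST1H2AI were both called higher, and HIST1H2AI shares most of its sequence with HIST1H2AJ. In that fit none of the 9 pairs had one member called higher and the other lower. With the library code as a term, HIST1H2BC passed as lower while its partner HIST1H2AC stayed higher. HIST1H2BO then passed as higher, as HIST1H2AM did, and HIST1H2BG and HIST1H2AE both passed as lower.

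Between the members lie genes of other kinds. Of 26 such genes within the clusters, 20 were tested, 17 rose and none fell, also at an unadjusted p under 0.05 or by DESeq2. HFE, LINC00240, PRSS16, POM121L2 and VN1R10P passed the filter on low counts only through the maltonis libraries, so that they could only rise. Of the other 15 genes 12 rose (80.0%, where 31.9% of all genes tested did). HFE, which encodes a protein of iron balance and lies between HIST1H1C and HIST1H4C, had a log2 fold change of 6.74 (SE 0.171, adjusted p 2.42e-08), from a mean of 0.235 to 25.8 CPM. VN1R10P, POM121L2 and PRSS16, between the second and the third block, also rose, from means of 0.01, 0.027 and 0.132 CPM, at or near the floor, to 0.454, 0.721 and 1.22 CPM. The butyrophilin genes BTN2A2, BTN3A1, BTN3A3, BTN2A1 and BTN3A2, of a family of immune receptors, rose by 0.68 to 2.48 between the first and second block. Whether counting used the strand is not given in the sources used here, so that reads from overlapping transcripts on opposite strands cannot be told apart.

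**Figure D5:**
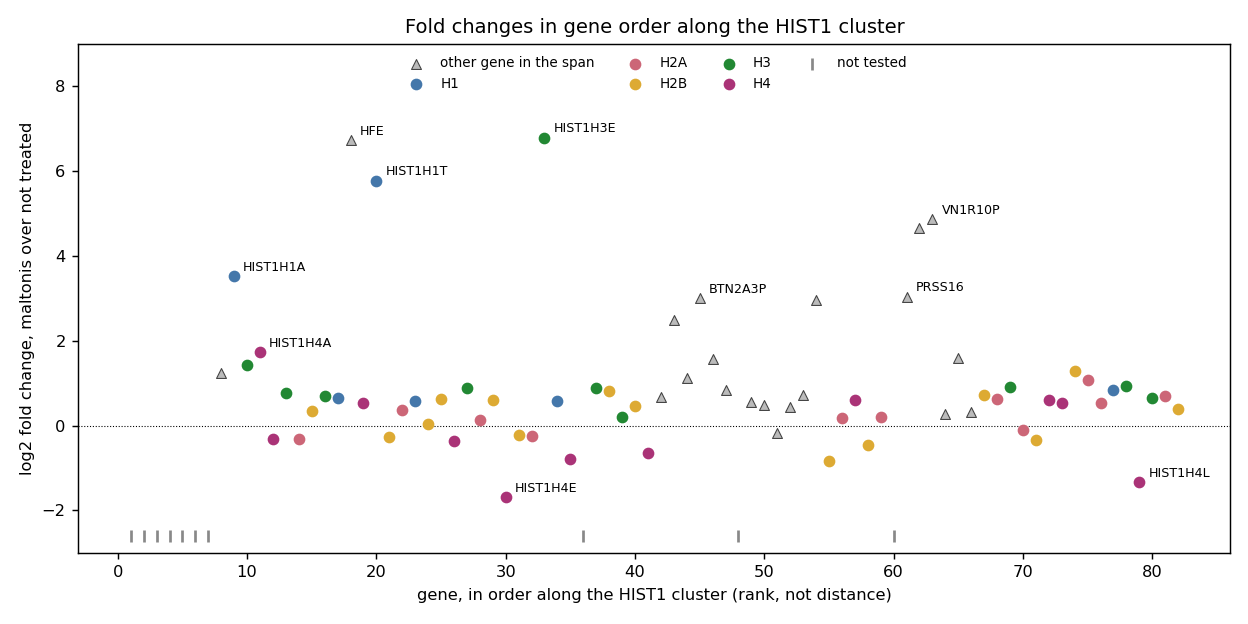
Log2 fold change (y axis, maltonis over not treated) of the genes of the HIST1 cluster in their order along chromosome 6 (x axis, rank and not distance). Circles are members, coloured by type, grey triangles are other genes in the span, and ticks at the bottom are genes that were not tested. HFE (6.74), HIST1H3E (6.79) and HIST1H1T (5.78) stand highest, and HIST1H4E (-1.68) and HIST1H4L (-1.34) lowest.

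Promoters were taken from RefSeq (GRCh38.p14), as 250 bases before and 50 after the start of a gene, and held an entry for 65 of the 73 members. Motifs were searched on both strands, and matches are descriptions of these windows only. The CCAAT box (CCAAT) was in 55 of the 65, against 35.7% of 27305 promoters, and the TATA box (TATAAA) in 43, against 12.0%. By type, CCAAT was in all promoters of H1, H2A, H2B and H3 but in 3 of 13 of H4. The octamer ATTTGCAT, known from H2B promoters, was in 14 of 18 of H2B, 11 of 16 of H2A, 1 of 12 of H3 and none of H1 or H4, against 1.80% of all promoters. The H1 box AAACACA was in 6 of 6 of H1, against 5.76% of all promoters, and in 1 of H2A and 2 of H3.

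For the 3 members with the largest rises, HIST1H1T, HIST1H1A and HIST1H3E, and the 2 with the largest falls, HIST1H4E and HIST1H4L, the 250 bases before the start are given 5′ to 3′ on the strand of the gene, with matches to these motifs on either strand in capitals. HIST1H1T (RefSeq H1-6) is at chr6:26108136-26108385 on the minus strand, HIST1H1A (H1-1) at chr6:26017788-26018037 on the minus strand, HIST1H3E (H3C6) at chr6:26223928-26224177 on the plus strand, HIST1H4E (H4C5) at chr6:26204360-26204609 on the plus strand and HIST1H4L (H4C13) at chr6:27873535-27873784 on the minus strand.
HIST1H1T: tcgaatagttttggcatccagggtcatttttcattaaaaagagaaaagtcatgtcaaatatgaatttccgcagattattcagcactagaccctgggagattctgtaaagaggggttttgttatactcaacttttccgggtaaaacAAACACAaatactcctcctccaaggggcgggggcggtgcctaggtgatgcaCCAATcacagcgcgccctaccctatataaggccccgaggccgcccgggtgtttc
HIST1H1A: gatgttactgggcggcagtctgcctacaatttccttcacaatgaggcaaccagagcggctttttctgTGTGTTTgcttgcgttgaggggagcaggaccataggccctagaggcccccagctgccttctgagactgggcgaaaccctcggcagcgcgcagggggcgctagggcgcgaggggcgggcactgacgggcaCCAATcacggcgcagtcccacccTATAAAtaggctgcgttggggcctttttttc
HIST1H3E: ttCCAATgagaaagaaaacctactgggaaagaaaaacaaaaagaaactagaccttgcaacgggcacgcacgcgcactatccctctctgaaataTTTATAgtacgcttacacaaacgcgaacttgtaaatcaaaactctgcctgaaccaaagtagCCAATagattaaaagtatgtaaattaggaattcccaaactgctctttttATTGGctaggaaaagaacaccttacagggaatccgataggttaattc
HIST1H4E: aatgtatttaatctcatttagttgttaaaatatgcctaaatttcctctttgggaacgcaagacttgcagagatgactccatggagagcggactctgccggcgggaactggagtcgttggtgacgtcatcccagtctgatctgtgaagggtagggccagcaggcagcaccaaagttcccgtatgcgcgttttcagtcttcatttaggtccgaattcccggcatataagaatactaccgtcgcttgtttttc
HIST1H4L: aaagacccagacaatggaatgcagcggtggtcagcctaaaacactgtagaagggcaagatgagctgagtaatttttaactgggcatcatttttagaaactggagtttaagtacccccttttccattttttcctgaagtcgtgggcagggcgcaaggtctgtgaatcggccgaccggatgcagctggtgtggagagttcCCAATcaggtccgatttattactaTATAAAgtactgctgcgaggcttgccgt
Both H1 genes that started near 1 CPM hold the H1 box and CCAAT, as do the 4 abundant H1 genes. HIST1H4E, which fell most, holds none of the motifs in its window, and HIST1H4L holds CCAAT and TATAAA. Within H2B, the median log2 fold change was -0.22 over the 13 tested members with the octamer (4 higher, 2 lower) and 0.73 over the 3 without it (2 higher). Within H2A the medians were 0.20 over 10 members with and 0.85 over 2 members without the octamer. The TATA box parted H2B in the same way, with medians of -0.22 over 11 members with and 0.61 over 5 without it, and H4 in the other, with 0.10 over 6 with and -0.71 over 4 without it. These groups are small and were not tested.

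The next genes serve the making and processing of histone mRNA. SLBP was at 335, 313 and 286 CPM without and at 293, 283 and 284 CPM with maltonis (log2 fold change -0.12, SE 0.0677, adjusted p 0.144). NPAT was at 89.2, 81.4 and 88.5 CPM and at 85.8, 95.7 and 96.8 CPM (log2 fold change 0.10, SE 0.0703, adjusted p 0.207). CASP8AP2, a partner of NPAT, rose from 104, 117 and 135 CPM to 153, 170 and 170 CPM (log2 fold change 0.47, adjusted p 0.00195). Of 24 genes of the list, all tested, 5 rose (20.8%, against 31.9% of all genes) and 11 fell (45.8%, against 32.1%), with a median log2 fold change of -0.14, and without any of the libraries in turn 1 to 3 rose.

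The falls included subunits of the U7 particle, which cuts histone pre-mRNA behind the stem-loop, and its partners. LSM10, a protein specific to U7, went from 3.84, 13.1 and 14.8 CPM to 1.65, 2.45 and 1.85 CPM (log2 fold change -2.43, SE 0.451, adjusted p 0.00111), the lowest not treated value being that of code A. ZNF473, which binds the U7 complex, went from 45.8, 45.4 and 44.9 CPM to 17.2, 17.4 and 18.2 CPM (log2 fold change -1.36, SE 0.0652, adjusted p 3.27e-07). SNRPD3 and SNRPF, ring proteins shared with splicing particles, both had -1.15. LSM11, the partner of LSM10, rose by 0.34 (adjusted p 0.0094), and ZCCHC6, which adds uridines to RNA ends, by 0.99.

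Variant histones come from outside the clusters. Of 20 genes in the files 10 were tested, 3 rose (30%, near the 31.9% of all genes) and 6 fell (60.0%, against 32.1%), and the median log2 fold change was -0.45. H2AFJ rose from 14.4, 11.8 and 11.2 CPM to 77.1, 74.5 and 77.5 CPM (log2 fold change 2.63, SE 0.0974, adjusted p 9.77e-08). H2AFY, macroH2A, fell from 337, 346 and 326 CPM to 117, 120 and 120 CPM (log2 fold change -1.50, SE 0.0539, adjusted p 8.62e-08). The linker histones H1FX (-1.04) and H1F0 (-0.93) fell, in contrast to the 6 clustered H1 genes, and so did H2AFZ (-0.48) and CENPA (-0.42). H3F3B rose by 0.25 and H3F3C by 0.29, while H2AFX had 0.02 (adjusted p 0.898). H3F3A was listed with at most 0.11 CPM and was not tested, and since the annotation and the counting of reads with several matches are not given, this level does not bear on its expression. Without not treated replicate 2 or 3 or maltonis replicate 2 or 3 only 1 variant rose.

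Among the 22 histone chaperones 5 rose (22.7%, against 31.9% of all genes) and 10 fell (45.5%, against 32.1%), with a median log2 fold change of -0.30. SSRP1, a subunit of FACT, had the largest fall (log2 fold change -3.34, adjusted p 1.92e-08), followed by ASF1A (-2.41) and IPO4 (-1.18), while ASF1B, the ASF1 form tied to dividing cells, rose by 0.92, DAXX by 0.76 and DNAJC9 by 0.60. Of 30 genes of S phase, 6 rose (20%), 9 fell (30%, near the share of all genes) and 15 did not pass (median log2 fold change -0.13). CDT1, a licensing factor, rose by 1.08, RPA2 by 0.99 and CLSPN by 0.52, and CCNA2 (-0.64), GINS1 (-0.63) and GINS2 (-0.59) fell. The share of cells in S phase was not measured in these files, and its part in the members' values was not tested. The study examined the cell cycle of NB4 cells at 10 µM by flow cytometry and reports a G2/M arrest.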

How the data were processed

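Counts of reads per gene symbol, 1 table per library, were made and deposited by the authors without normalization. The submitters' processing notes name TopHat, Bowtie2, HTSeq and hg19, with no versions. The annotation, the strand setting and the treatment of reads with several matches are not given in the sources used here. Library kits kept the strand. Here the counts of all 6 libraries were fitted with edgeR 4.0.16 in R 4.3.3 (TMM scaling, filterByExpr, quasi-likelihood test without covariates), with Benjamini-Hochberg adjustment over 13209 genes. A call had an adjusted p under 0.01. CPM use TMM-scaled library sizes, and levels per kilobase use coding lengths from GENCODE release 29. Replicate libraries differed by more than sampling noise (chi-square per degree of freedom 4.33 to 35.0), which alone does not show that they are separate samples. In both groups the values were larger across the library codes than within code B. The study calls the libraries biological replicates, so each counted as a sample, and p-values measure the spread between these libraries. On simulated counts over 13150 genes, the test recovered 96 of 99 genes changed by a log2 fold of 1. The simulation used 1 spread for all genes, no effect of the library code and only 200 changed genes, none of them low in counts. It checked that the fit runs as meant and does not give the share of real changes that were found. Alternatives covered scaling, filter, DESeq2 1.42.0, the replicate number, the library code and each library left out. Members and gene lists were chosen with earlier results of these data known. Values in each library are given, in each type, for up to 3 called members with the largest rise and fall and the 2 most abundant, for testis histones, and for set genes and the largest calls of the other lists. HIST2H2BA, apart from the other HIST2 genes, was left out of gene order. ARS2 and H2BFS have no row under those symbols. A further cell type marker is not reported here.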

Additional observations from a re-analysis of the deposited data

How the results depend on the processing

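Of the 40 calls, 31 held under all 14 alternatives. The calls of HIST1H2BF, HIST1H4J, HIST4H4, HIST1H4I, HIST1H2AC, HIST1H2BE, HIST1H2BI, HIST1H2AB and HIST1H2BM were lost under at least 1, and no called member changed direction. The 33 higher members became 28 to 35 with a library left out and 38 by DESeq2. The 7 lower members became 13 with the library code as a term, 12 with the replicate block and 6 to 8 with a library left out. Beyond 2.5-fold, 6 to 8 were higher and 1 to 2 lower with a library left out, and 1 was lower with total counts, the upper quartile or the filter at 1 CPM.

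No member of H2A was lower (0) with total counts or the upper quartile, 2 were with the library code, and 0 to 1 with a library left out. The number of lower H2B members was 1 with total counts or the upper quartile and 5 with the replicate block or the library code. Of H4, 2 to 5 members were higher with a library left out, of the processing genes 1 to 3, and of the variant histones 1 to 3. Log2 ratios of summed CPM moved with total counts to 0.55 for all members, 0.83 for H1, 0.42 for H2A, 0.23 for H2B, 0.93 for H3 and 0.56 for HIST1, and with the upper quartile to 0.52 for all members and 0.90 for H3. Members without a call that changed sign were HIST1H2AJ (0.018 with total counts) and, with a library left out, HIST1H2AD (-0.019 to 0.26), HIST1H2AG (-0.0095 to 0.29), HIST1H2BD (-0.095 to 0.085) and HIST2H2BE (-0.80 to 0.15). The cause was not tested.

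Whether the replicate numbers pair the libraries was not settled. Deviations of same-numbered libraries correlated with 0.301, 0.0852 and 0.161. For replicates 1 and 3 the same number in the other group gave the highest value. Replicate 2 of each group correlated best with replicate 3 of the other (0.123 and 0.139). Replicate 1 is also code A, so that a pairing by number and the library code cannot be told apart there. Levels under 0.5 CPM rest on a few reads.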
